A study of Mus musculus with 8 samples.

Results

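Transporters that carry organic anions, organic cations and drugs across hepatocyte membranes were followed in 8 liver RNA samples of male mice, each read on 1 one-colour expression array. All mice had undergone 5 weeks of fibrosis induction with CCl4 (carbon tetrachloride) or TAA (by its usual reading thioacetamide, although the labels give the abbreviation alone), then 1 or 2 weeks of observation with injections every 3 days of a negative control nucleotide (NC) or of miR-29a. Agent, week and oligonucleotide gave 8 combinations with 1 array apiece, so 4 arrays stood for each agent and 2 for each agent and week. Mice without fibrosis induction were not analysed here, and strain, age, dose and the number of mice behind each RNA are not given in the sources used here. The genes were taken by name: all Slco, Slc22a, Slc47a, Abcb and Abcc genes on the array except Abcb11. The names matched 62 genes with 82 probes, and 41 genes, each read through its brightest probe, passed the detection filter, which asks for a signal marked well above background by the scanner software in 2 or more of the 8 arrays. Of these 41, 34 were well above background on all 8. They were set among 19914 features chosen by the same rule.

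Uptake in hepatocytes begins at the sinusoidal membrane, where Slco proteins exchange organic anions such as bile acids, bilirubin and hormone conjugates, and Slc22a proteins carry organic cations, organic anions and carnitine. Export into bile uses ATP-driven Abcb and Abcc pumps and the proton-coupled Slc47a1 in the canalicular membrane, and other Abcc pumps return conjugates to the blood. Loss of sinusoidal uptake carriers and gain of basolateral pumps is a well known response of the cholestatic or injured liver. By these roles 23 of the measured genes were uptake carriers (7 Slco and 16 Slc22a, among them the pseudogene Slc22a13b-ps) and 11 were exporters (4 canalicular, 7 other). The other 7 were 5 ABC proteins of intracellular membranes (such as Abcb6 and Abcb8) and 2 potassium channel subunits (Abcc8, Abcc9). The 21 genes below the detection limit included kidney carriers such as Slc22a2, Slc22a8 and Slc22a12, and the second Slc47a gene, Slc47a2.

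The injected oligonucleotide is named miR-29a in the labels, which do not print its sequence. The mature mouse miR-29a-3p of RefSeq is shown so that the agent of that comparison can be seen, with its seed, bases 2 to 8, in capitals. The 250 bases before the start site are shown for 5 of the measured genes, from RefSeq on GRCm38.p6. They include the carrier with the largest loss (Slco1a1), the pump whose agent difference changed with the week (Abcb1a) and the main canalicular conjugate pump (Abcc2). The others are 2 of the pumps that were higher after TAA in all 4 matched pairs (Abcc4 and Abcc10). Abcc5 and, by its measured levels, the dim Abcc1 were higher in all 4 pairs too and are not shown. Capitals mark matches on either strand to the core of the antioxidant response element (TGACNNNGC) or to a nuclear receptor core motif (AGGTCA), which can overlap because both hold TGAC.
mmu-miR-29a-3p: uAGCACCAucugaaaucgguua
Slco1a1, chr6:141946963-141947212, minus strand: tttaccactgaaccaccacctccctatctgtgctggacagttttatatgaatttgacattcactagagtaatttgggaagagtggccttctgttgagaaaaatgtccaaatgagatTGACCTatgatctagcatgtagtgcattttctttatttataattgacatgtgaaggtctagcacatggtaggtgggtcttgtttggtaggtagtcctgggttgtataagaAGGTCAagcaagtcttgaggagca
Abcb1a, chr5:8566841-8567090, plus strand: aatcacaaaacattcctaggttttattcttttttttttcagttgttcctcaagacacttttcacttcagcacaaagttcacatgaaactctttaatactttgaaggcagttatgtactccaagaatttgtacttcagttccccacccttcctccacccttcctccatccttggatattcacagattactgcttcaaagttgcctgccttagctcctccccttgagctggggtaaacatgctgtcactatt
Abcc2, chr19:43782058-43782307, plus strand: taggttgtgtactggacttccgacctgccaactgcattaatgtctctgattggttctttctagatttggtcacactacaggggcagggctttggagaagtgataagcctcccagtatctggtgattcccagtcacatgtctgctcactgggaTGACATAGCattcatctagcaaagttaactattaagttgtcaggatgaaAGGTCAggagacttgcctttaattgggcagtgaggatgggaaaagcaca
Abcc4, chr14:118706220-118706469, minus strand: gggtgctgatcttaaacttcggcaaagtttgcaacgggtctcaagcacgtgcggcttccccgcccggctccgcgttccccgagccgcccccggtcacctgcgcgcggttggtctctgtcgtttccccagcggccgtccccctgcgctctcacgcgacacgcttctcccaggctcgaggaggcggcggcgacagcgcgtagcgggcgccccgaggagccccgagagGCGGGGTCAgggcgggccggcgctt
Abcc10, chr17:46328024-46328273, minus strand: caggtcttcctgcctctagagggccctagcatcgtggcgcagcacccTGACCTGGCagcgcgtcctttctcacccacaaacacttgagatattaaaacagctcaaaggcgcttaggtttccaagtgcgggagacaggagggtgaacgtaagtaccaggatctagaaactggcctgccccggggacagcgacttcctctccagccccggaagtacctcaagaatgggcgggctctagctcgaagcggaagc

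A promoter entry was found for 29 of the 41 measured genes, in 34 windows. The antioxidant response element core stood in 5 of these 34 windows, those of Abcc2, Abcc10 and Slc22a27 and both windows of Abcc4, and in 10.2% of all 32851 windows. The nuclear receptor core motif stood in 8 of 34 windows, belonging to 7 genes, and in 14.0% of all. In the Slco1a1 window it was found at 2 places, positions −134 to −129 and −24 to −19 from the start site. Other letters searched were a STAT5 site (TTCNNNGAA), in 5 of 34 windows and 7.0% of all, an HNF1 core motif (GTTAAT), in 2 of 34 and 6.4%, and the xenobiotic response element core (GCGTG), in 7 of 34 and 28.2%. The Abcb1a window held none of the 5. That of Abcc5, a pump that was also higher after TAA in all 4 pairs, held a STAT5 site alone. These motifs were picked after results of these data were known, and a match describes letters in a window, not a bound site.

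Each array had 59305 non-control spots, of which 43.9 to 48.4% were well above background and 0 were saturated. A level below is the log2 processed signal minus the 75th percentile of its array, so it compares arrays for a given probe and never one probe with another. A difference is TAA minus CCl4, 2 weeks minus 1 week, or miR-29a minus NC, with the standard error (SE) of the limma fit, and a call is a Benjamini-Hochberg adjusted p below 0.05 over all 19914 features. The labels name no separate cultures or animals within a combination, so the tests measure the spread among these 8 arrays alone. All 8 arrays were on 1 slide, with the CCl4 arrays in its first row and the TAA arrays in its second by their barcode positions, so agent and slide row cannot be told apart. The TAA 1-week NC array stood apart: the summed linear level of 5 neutrophil markers was 320 there against 7.46 to 11 on the other 7 arrays, and that of 5 Kupffer cell markers was 163 against 19.7 to 33.8. Of the neutrophil markers, S100a8, S100a9, Camp and Ngp were highest on that array. Elane did not follow the sum, with 2.07 on that array and 1.63 to 2.08 on the others. The 5 hepatocyte markers summed to between 4520 and 5930 on all 8. Of 5 kidney markers, Umod, Slc12a1 and Slc12a3 were not detected on any array, while Aqp2 was well above background on all 8. Kap was well above background on 1 array, and its highest level was −1.06, on the TAA 1-week NC array.

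**Figure D1:**
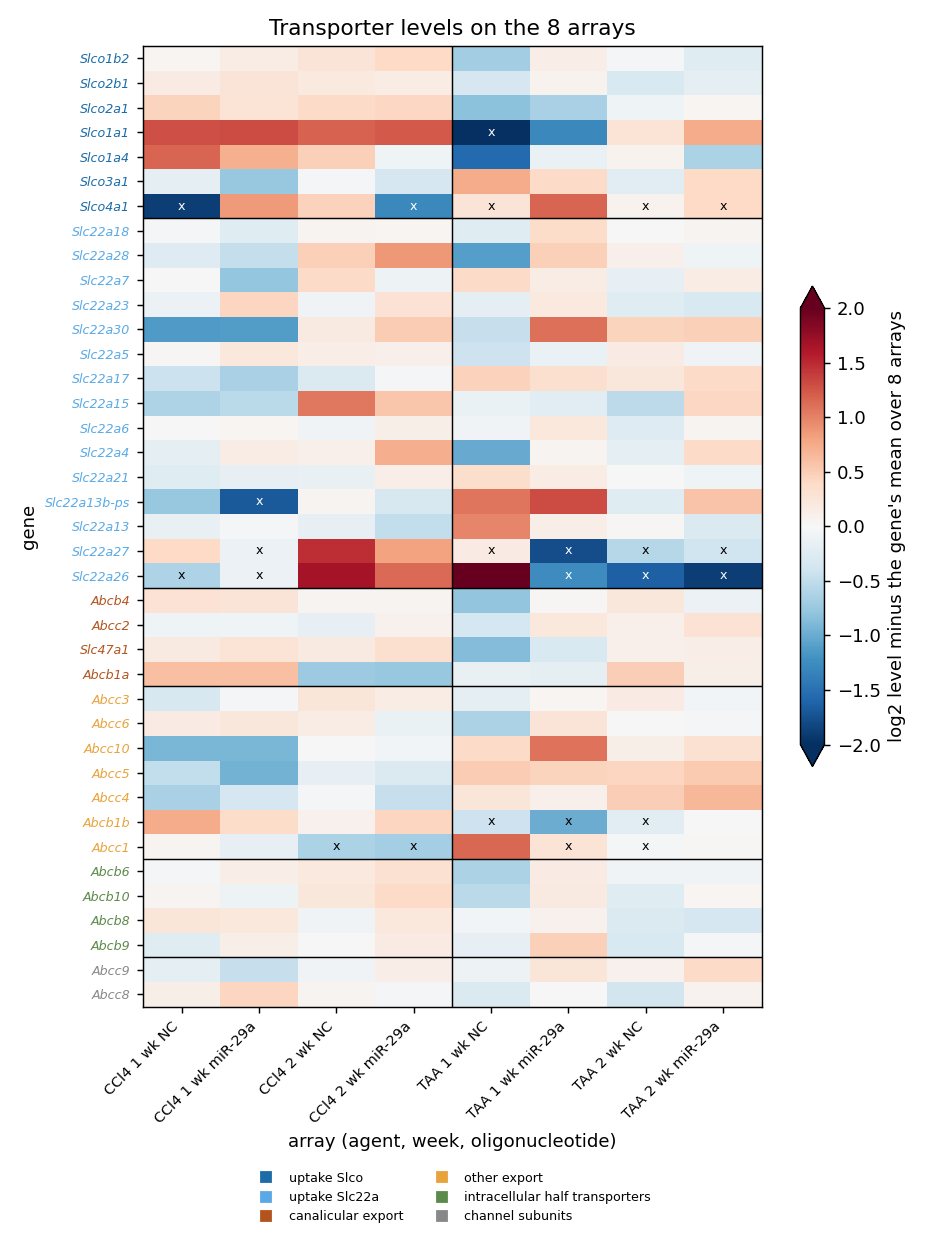
Levels of 39 of the 41 transporter genes (rows, coloured and grouped by role) on the 8 arrays (columns), as log2 level minus the gene's mean over the 8 arrays; the scale is clipped at ±2 and a cross marks a probe that was not well above background. Slco1a1 is high on the 4 CCl4 arrays and lowest on the TAA 1-week NC array, and Abcc10 and Abcc5 are lowest on the CCl4 1-week arrays.

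Uptake and export genes differed little as classes. Between the agents, 14 of 23 uptake genes were lower after TAA, with a median difference of −0.23, and 6 of 11 export genes were higher, with a median of 0.13, beside a median of −0.11 over all features. Over the 4 matched pairs of arrays the median of the uptake genes was −0.073, 0.17, −0.28 and −0.17 and that of the export genes −0.26, 0.088, 0.17 and 0.20 (in the order 1-week NC, 1-week miR-29a, 2-week NC, 2-week miR-29a). Neither class kept its sign in all 4 pairs. The export median turned to −0.02 when the CCl4 2-week miR-29a sample was left out and to −0.052 when the TAA 2-week NC sample was. The sign of the export median also depended on the scaling. With scaling to the array median it became −0.26, that of the uptake genes −0.62 and that of all features −0.50. With no filter on dim probes, the medians of all features, uptake and export genes were 0.18, 0.25 and 0.33. That setting took in dim genes as well, with 41 uptake and 14 export genes.

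Within the classes the members spread widely. The Slco carriers had a median agent difference of −0.41, with 5 of 7 lower, and the Slc22a carriers −0.13, with 9 of 16 lower. The 4 canalicular exporters had a median of −0.10 and the 7 other exporters 0.71, of which 4 were higher. Abcb1b (−0.81 ± 0.26) was listed among the other exporters. Abcb1a, the second mouse gene for the same multidrug pump, P-glycoprotein, was listed as canalicular. The canalicular median depends on that placement. All 5 ABC proteins of intracellular membranes were lower after TAA, Abcb9 by the least (−0.018). No gene of the 41 was called for the agent over both weeks: the smallest adjusted p was 0.145 (Abcc5), and 16 genes had an unadjusted p below 0.05, 7 higher and 9 lower. Over all features none was called either, although 27.4% had an unadjusted p below 0.05.

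**Figure D2:**
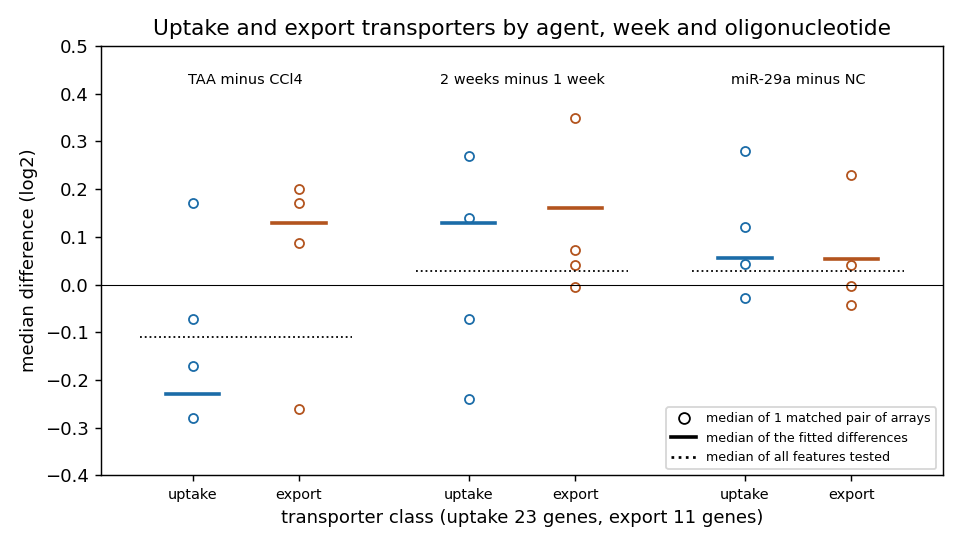
Median log2 difference of the 23 uptake and 11 export genes for agent, week and oligonucleotide; open circles are the medians of single matched pairs of arrays, thick bars the medians of the fitted differences and dotted lines the median of all 19914 features. The circles of either class lie on both sides of 0 in each comparison.

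The agents differed most after 1 week, and among the carriers that were lower were Slco1a1 and Slco2a1. As a class, 13 of 23 uptake genes were higher after TAA at 1 week, with a median of 0.048. Of 11 export genes 6 were higher, with a median of 0.022, beside −0.14 over all features. The Slco carriers had 5 of 7 lower (median −0.37) and the Slc22a carriers 11 of 16 higher (median 0.30). At 1 week 11 of the 41 genes were called (26.8%), 4 higher and 7 lower after TAA, while 32.4% of all 19914 features were called, so the transporters were called no more often than other genes. The levels of 9 of the 11 are given here. Leaving out 1 array changed this count: 18 were called with the TAA 1-week miR-29a array left out, 3 (Abcc5, Abcc10 and Slc22a13b-ps) with the CCl4 1-week NC array left out, and 0 with the CCl4 1-week miR-29a array left out. Without the TAA 1-week NC array, which stood apart, Slco1a1, Slco2a1, Abcb1b, Abcc5 and Abcc10 were still called, while Slc47a1 (−0.58, adjusted p = 0.0503), Abcb1a (−0.71, adjusted p = 0.0633), Slc22a17 (0.84, adjusted p = 0.0592) and Slc22a13b-ps (2.59, adjusted p = 0.0514) were not. Abcb1a and Slc47a1 also lost the call without either CCl4 2-week array, and Abcb1b (−0.94, adjusted p = 0.072) and Slc22a13b-ps (2.21, adjusted p = 0.0585) without the TAA 1-week miR-29a array. A fit without a 1-week array leaves 1 array in that arm, which is assumed to vary like the other groups. The split of 4 higher to 7 lower became 3 to 21 with scaling to the array median, which moved the median of all features from −0.14 to −0.73, and 8 to 8 under normexp background correction. These levels come from whole liver, in which fewer cells of a type and less RNA per cell cannot be told apart.

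Slco1a1, an organic anion carrier that is more abundant in male than in female mouse liver, showed the largest difference of the 41. Its level was 3.06 and 3.07 on the CCl4 1-week NC and miR-29a arrays and 2.95 and 2.99 at 2 weeks. After TAA it was −2.97 and 0.47 at 1 week, the first of these not well above background, and 2.03 and 2.51 at 2 weeks. All 4 TAA arrays thus lay below all 4 CCl4 arrays, and the 2 at 1 week lay far below. The difference at 1 week was −4.31 ± 0.90 (SE, 2 arrays against 2, limma adjusted p = 0.0238), and within the NC pair the level was at least 65.1-fold lower after TAA. Without the TAA 1-week NC array, where the neutrophil and Kupffer markers were high, it was −2.68, from 1 TAA array whose spread is assumed to be that of the other groups (adjusted p = 0.0177). Without the CCl4 1-week NC or miR-29a array it was −3.66 or −4.97 and not called (adjusted p = 0.122 and 0.0862). At 2 weeks the difference was −0.70 ± 0.90 (adjusted p = 0.759), and from 1 to 2 weeks after TAA the level differed by 3.52 ± 0.90 (adjusted p = 0.107).

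Slco2a1, the prostaglandin transporter, also separated the agents. It was at 4.57 and 4.40 on the CCl4 1-week arrays against 3.30 and 3.48 on the TAA 1-week arrays, and at 4.51 and 4.53 against 4.03 and 4.17 at 2 weeks. The groups did not overlap at either week, and the gap was wider at 1 week. The difference at 1 week was −1.10 ± 0.15 (adjusted p = 0.00848) and at 2 weeks −0.42 ± 0.15 (adjusted p = 0.465).

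Other uptake carriers that are abundant in liver differed less than Slco1a1 or were not called. Slco1b2, the mouse counterpart of the human hepatocyte OATP1B carriers, was at 8.47 and 8.58 after CCl4 and 7.74 and 8.57 after TAA at 1 week, a difference of −0.37 ± 0.27 (adjusted p = 0.326). Slco2b1, another anion carrier, was lower after TAA in 4 of 4 pairs, by 0.17 to 0.50, with an agent difference of −0.38 ± 0.13 (adjusted p = 0.149). Slco1a4, a carrier that takes up digoxin in rodents, was also lower in 4 of 4 pairs; its level was 2.62 and 2.16 after CCl4 and −0.11 and 1.31 after TAA at 1 week, and the difference of −1.79 ± 0.56 was not called (adjusted p = 0.0643). Slc22a18, an orphan carrier, stayed within 6.34 to 6.95 on the 8 arrays. Slc22a7, an organic anion carrier of the sinusoidal membrane, ranged from 3.02 to 4.18. At 1 week Slc22a7 was at 3.80 and 3.02 after CCl4 and at 4.18 and 3.94 after TAA. That difference of 0.66 ± 0.28 was not called (adjusted p = 0.129).

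The uptake-family genes called higher after TAA at 1 week were Slc22a17 and Slc22a13b-ps. Slc22a30 (1.44 ± 0.41, adjusted p = 0.0529) and Slco3a1 (1.03 ± 0.30, adjusted p = 0.055) were also higher in both 1-week pairs but were not called. Slc22a17, which binds lipocalin 2, was at −1.23 and −1.45 on the CCl4 1-week arrays and at −0.33 and −0.47 on the TAA 1-week arrays, a difference of 0.94 ± 0.17 (adjusted p = 0.0169). Scaling to the array median reduced this to 0.35, which was not called (adjusted p = 0.144). The pseudogene Slc22a13b-ps, whose present RefSeq symbol is Slc22a13b, was at −2.42 and −3.34 after CCl4, the second not well above background, and at −0.59 and −0.36 after TAA. Its difference was 2.4 ± 0.43 (adjusted p = 0.0157), and within the miR-29a pair the level was at least 7.86-fold higher after TAA. The neighbouring gene Slc22a13, a carrier of urate and nicotinate, differed by 0.65 ± 0.24 (adjusted p = 0.0945). Their probes start with the letters below, shown because a probe can also bind RNA of a near-identical copy.
Slc22a13 probe, first 30 bases, chr9:119102121-119102180 on mm9, minus strand: agtctctctggggttgtggcctcaccagtc
Slc22a13b-ps probe, first 30 bases, chr9:119129611-119129670 on mm9, minus strand: catgggcagtatcctattggctaaggtcct
Over all 820 pairs of the 41 probes used, the largest number of identical aligned bases was 30, in an overlap of 55 of the 60 bases, between Slc22a23 and Slco2a1. No 2 of these probes were near copies of each other. Whether a probe also matches the transcript of another member outside that member's own probe was not tested.

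**Figure D3:**
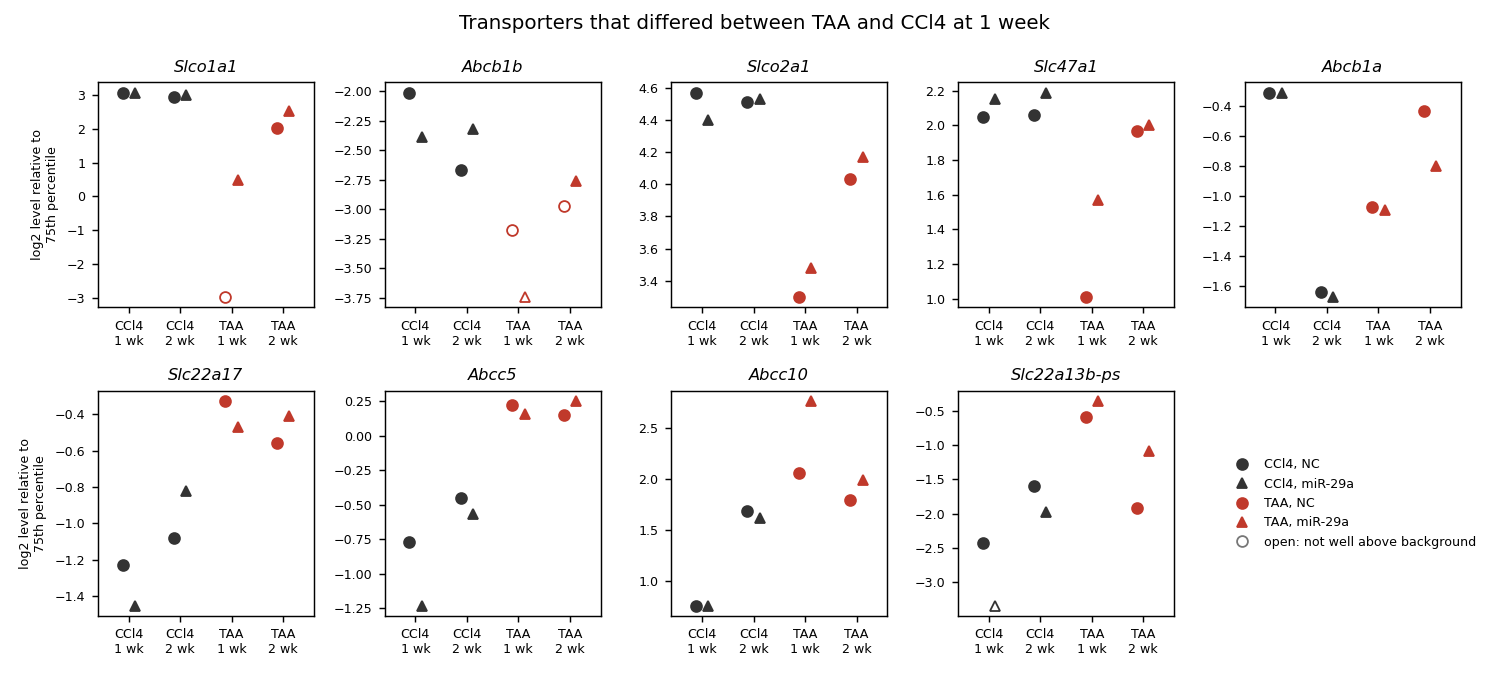
Log2 levels of 9 of the 11 genes called between TAA and CCl4 at 1 week, each on its own axis, by agent and week; circles are NC and triangles miR-29a arrays, black CCl4 and red TAA, and open symbols were not well above background. In each panel the 2 TAA 1-week points lie apart from the 2 CCl4 1-week points, and in all panels except that of Abcb1a the agents lie closer together at 2 weeks.

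Among the exporters listed as canalicular, Slc47a1 and Abcb1a were called lower after TAA at 1 week and none was called higher. Slc47a1, which moves organic cations such as metformin from hepatocytes into bile, was at 2.05 and 2.15 after CCl4 and 1.01 and 1.57 after TAA, a difference of −0.81 ± 0.17 (adjusted p = 0.0256). At 2 weeks it was at 2.06 and 2.19 against 1.97 and 2.00, a difference of −0.14 ± 0.17 (adjusted p = 0.752). Abcb4, the phosphatidylcholine floppase of bile, was at 7.04 and 7.01 after CCl4 and 5.97 and 6.77 after TAA at 1 week, and its difference of −0.65 ± 0.29 was not called (adjusted p = 0.147). Abcc2, the canalicular pump for bilirubin and other conjugates, stayed within 4.23 to 4.87 on the 8 arrays, with a difference at 1 week of 0.022 ± 0.17 (adjusted p = 0.933).

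Abcb1a, one of the 2 mouse genes for the multidrug pump P-glycoprotein, was the only one of the 41 called in the test of whether the agent difference changed between the weeks. On the CCl4 arrays its level was −0.31 and −0.31 at 1 week and −1.64 and −1.67 at 2 weeks. On the TAA arrays it was −1.07 and −1.09 at 1 week and −0.43 and −0.80 at 2 weeks. CCl4 livers were thus the higher ones at 1 week and the lower ones at 2 weeks, without overlap at either. The difference was −0.77 ± 0.15 at 1 week (adjusted p = 0.0203) and 1.04 ± 0.15 at 2 weeks (adjusted p = 0.276), and the term for the change between weeks was 1.81 ± 0.21 (limma adjusted p = 0.0322). That 1 of 41 members (2.44%) compares with 7.39% of all features called for this term. The call was lost when any one of the 4 CCl4 arrays or the 2 TAA 2-week arrays was left out, with terms of 1.63 to 1.99 and adjusted p of 0.084 to 0.167, and with no filter on dim probes (adjusted p = 0.0888). Under normexp background correction the term was 1.03 (adjusted p = 0.0156). The second gene, Abcb1b, is known to be induced in regenerating and injured liver. At 1 week it was at −2.01 and −2.39 after CCl4 and not well above background on either TAA array, at least 1.62-fold lower. The fitted difference, which uses the levels below background, was −1.26 ± 0.27 (limma adjusted p = 0.0253). It lay between −1.85 and −0.077 over the alternatives and was not called under normexp background correction. Abcb1b passed the detection filter through 4 CCl4 arrays and 1 TAA array, so its detection leaned on the CCl4 side.

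Among the other exporters Abcc10 and Abcc5 were called higher after TAA at 1 week, and Abcb1b, above, lower. Abcc10, a pump for lipophilic anions and several cytotoxic drugs, was at 0.76 and 0.76 on the CCl4 1-week arrays, 2.06 and 2.76 on the TAA 1-week arrays, 1.69 and 1.62 on the CCl4 2-week arrays and 1.79 and 1.99 on the TAA 2-week arrays. The gap was wide at 1 week and small at 2 weeks. The difference was 1.65 ± 0.22 at 1 week (adjusted p = 0.00869) and 0.24 ± 0.22 at 2 weeks (adjusted p = 0.672). Abcc5, a pump of cyclic nucleotides and glutamate conjugates, was between −1.23 and −0.45 on the 4 CCl4 arrays and between 0.15 and 0.25 on the 4 TAA arrays, so the agents did not overlap at either week. Its difference was 1.19 ± 0.17 at 1 week (adjusted p = 0.00987) and 0.71 ± 0.17 at 2 weeks (adjusted p = 0.465). With the CCl4 1-week miR-29a array left out, the adjusted p at 1 week was 0.065.

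Abcc4, a basolateral pump for bile acids and cyclic nucleotides, was higher after TAA in 4 of 4 pairs but was not called. Its level was −1.11, −0.79, −0.49 and −0.91 on the CCl4 arrays (1-week NC, 1-week miR-29a, 2-week NC, 2-week miR-29a) and −0.22, −0.36, 0.03 and 0.21 on the TAA arrays. The lowest TAA array was above the highest CCl4 array. The agent difference was 0.74 ± 0.16 (adjusted p = 0.145), with 0.66 at 1 week (adjusted p = 0.0743) and 0.82 at 2 weeks (adjusted p = 0.465). The summed level of the T and NK cell markers was likewise higher on the TAA arrays, 9.59 to 11.3 against 7.86 to 8.75. Not all of its 5 markers followed the sum. Gzma lay between −0.94 and −0.33 after CCl4 and between −1.49 and −0.42 after TAA, and Nkg7 and Cd3e also overlapped between the agents. Cd3g did not overlap but was well above background on 5 of 8 arrays, and Cd8a was not detected on any array. The part of these markers in the Abcc4 result was not tested. Abcc3, the basolateral conjugate pump, stayed within 5.93 to 6.49, and Abcc6, a pump of hepatocytes that governs calcification elsewhere in the body, within 4.49 to 5.38. Abcc1, a ubiquitous glutathione conjugate pump, was well above background on 4 of 8 arrays. Both arrays measured it in the 1-week NC pair alone, at −2.78 after CCl4 and −1.69 after TAA, and in the 2-week miR-29a pair it was at least 1.59-fold higher after TAA. The other pairs give no direction at this signal.

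Abcb6, Abcb8 and Abcb10, ABC proteins of intracellular membranes, were read well above background on all 8 arrays. By the probes used they differed little between the agents, while a second Abcb8 probe gave −1.56 at 1 week (below). Abcb8, a protein of the inner mitochondrial membrane, was at 3.49, 3.46, 3.17 and 3.46 on the CCl4 arrays (1-week NC, 1-week miR-29a, 2-week NC, 2-week miR-29a) and at 3.2, 3.33, 2.96 and 2.91 on the matched TAA arrays. It lay below CCl4 in all 4 pairs, while the agents overlapped over the weeks (−0.29 ± 0.12, adjusted p = 0.188). Abcb10, which serves heme synthesis in mitochondria, was between 3.24 and 3.72 after CCl4 and between 2.79 and 3.51 after TAA, and Abcb6 between 3.97 and 4.31 and between 3.37 and 4.17. Both were lowest on the TAA 1-week NC array. Of the channel subunits, Abcc9, a regulatory subunit of ATP-sensitive potassium channels, lay above CCl4 in 4 of 4 pairs (0.30 ± 0.15, adjusted p = 0.227), and Abcc8, the subunit known from pancreatic beta cells, differed by −0.29 ± 0.14 (adjusted p = 0.22).

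Members with a second probe well above background on all 8 arrays were split. Slco2b1 (−0.34 and −0.41 at 1 week) and Slc22a28 (0.048 and −0.31) had probes that moved together over the 8 arrays, with a Pearson correlation of 0.99 and 0.96. Abcb4 (−0.65 and 0.10), Abcc6 (−0.38 and 0.12), Abcb8 (−0.21 and −1.56) and Slco3a1 (1.03 and 0.14) gave unlike differences. For Abcc5 the other 3 probes were well above background on 5, 1 and 0 arrays and gave −0.0079, 0.60 and 2.04.

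**Figure D4:**
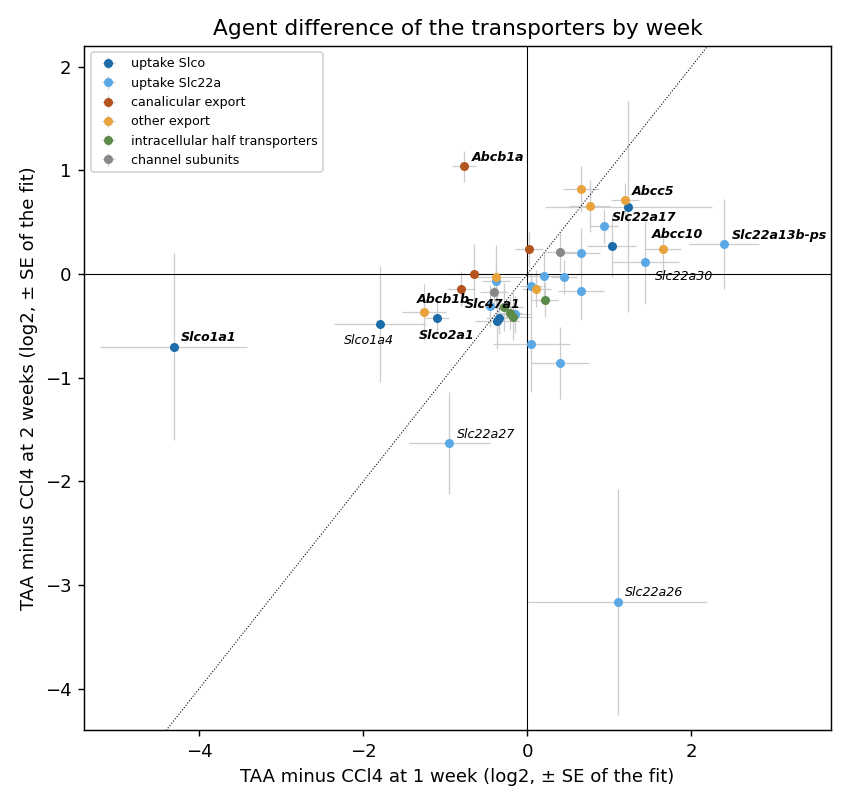
Agent difference (TAA minus CCl4, log2) of 39 of the 41 genes at 1 week (x axis) and at 2 weeks (y axis), with bars of 1 SE of the fit; bold names are 9 of the 11 genes called at 1 week and the dotted line marks equal differences. Most called genes lie nearer to 0 on the y axis than on the x axis, and Abcb1a lies on opposite sides of 0.

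At 2 weeks none of the 41 transporters was called between the agents, against 0.0753% of all features. By the unadjusted p, 5 of the 41 were higher and 5 lower below 0.05, beside 10.7% of all features. Slc22a26, an Slc22a gene of chromosome 19, was at −2.07 and −2.61 after CCl4 and not well above background on either TAA array, at least 1.96-fold lower. Its neighbour Slc22a27 was at −1.82 and −2.49 after CCl4 and also not well above background after TAA, at least 2.23-fold lower. Both were seen on 3 of the 8 arrays alone. For Slc22a27 all 3 were CCl4 arrays, so it passed the detection filter through CCl4 alone. A lower level after TAA was favoured by that selection. For Slc22a26 they were the 2 CCl4 2-week arrays and the TAA 1-week NC array, where it was at −1.02. Slc22a26 passed the filter only with the CCl4 2-week arrays, so a lower level after TAA at 2 weeks was favoured for it too.

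Slc22a26, Slc22a27, Slc22a28 and Slc22a30 are neighbours on chromosome 19, with their probes between positions 7856477 and 8417872 (mm9). On the CCl4 arrays all 4 were higher at 2 weeks than at 1 week in both the NC and the miR-29a pair. Slc22a26 and Slc22a27 passed the detection filter only with the CCl4 2-week arrays. For these genes a higher level at 2 weeks was favoured by that selection. Slc22a30 went from 1.81 and 1.82 to 3.12 and 3.44 (difference 1.46 ± 0.41, adjusted p = 0.175) and Slc22a28 from 3.59 and 3.37 to 4.32 and 4.72 (1.04 ± 0.47, adjusted p = 0.344). Slc22a27 differed by 1.00 ± 0.49 (adjusted p = 0.382), and Slc22a26 was not well above background at 1 week, at least 2.22-fold lower than at 2 weeks (adjusted p = 0.475). None of these passed the test, and 12 of the 16 measured Slc22a genes had a difference above 0 in this comparison, with a median of 0.41. On the TAA arrays the 4 did not move together: Slc22a28 and Slc22a30 were higher at 2 weeks in the NC pair (1.21 and 0.90) and lower in the miR-29a pair (−0.56 and −0.60). Slc22a27 was not well above background on any TAA array, and Slc22a26 was at least 4.49-fold lower at 2 weeks in the NC pair.

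No transporter was called for the week over both agents (smallest adjusted p 0.865, for Abcc1), and none over all features either. At an unadjusted p below 0.05 there were 2 transporters, beside 5.39% of all features. Abcc1 was at least 1.63-fold and 1.4-fold lower at 2 weeks in the CCl4 NC and miR-29a pairs and at least 2.26-fold lower in the TAA NC pair, and its TAA miR-29a pair gives no direction because the 1-week array was not well above background. Slc22a4, the ergothioneine carrier, was higher in 4 of 4 pairs (0.51 ± 0.15, adjusted p = 0.865). Slc22a13 was lower in 4 of 4 pairs (−0.45 ± 0.19, adjusted p = 0.865). Within CCl4 none of the 41 was called, against 0.1% of all features, and Abcb1a came nearest (−1.35 ± 0.15, adjusted p = 0.0532). Within TAA none was called, against 0.221% of all features, and Slco2a1 came nearest (0.71 ± 0.15, adjusted p = 0.0829). The week medians were 0.13 for uptake and 0.16 for export genes, beside 0.028 over all features.

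miR-29a and NC livers were not told apart by any transporter. None of the 41 and none of all features was called by limma, and at an unadjusted p below 0.05 there was 1 transporter, Slc22a4, among 585 features (2.94%). Slc22a4 was at −1.30, −1.01, −2.12 and −1.29 on the NC arrays and at −0.96, −0.38, −1.05 and −0.73 on the matched miR-29a arrays (CCl4 1-week, CCl4 2-week, TAA 1-week, TAA 2-week). It was higher with miR-29a in 4 of 4 pairs, by 0.34 to 1.07, while the arms overlapped (0.65 ± 0.15, unadjusted p = 0.00492, adjusted p = 1). The median difference was 0.055 for uptake and 0.053 for export genes, beside 0.029 over all features. Among the genes with 1 sign in all 4 pairs Slco1a1 had the largest difference, 0.99 ± 0.93 (adjusted p = 1), with 3.44 in the TAA 1-week pair and 0.01, 0.04 and 0.49 in the other 3, and it was −0.069 without the TAA 1-week NC array. Slc22a30 differed by 0.48 ± 0.38 (adjusted p = 1), with 1.55 in the TAA 1-week pair and 0.0033, 0.33 and 0.047 in the others. No transporter was called for a term of oligonucleotide with agent or with week. At an unadjusted p below 0.05 there were 0 and 1, beside 1.81% and 2.11% of all features.

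The genes that control or accompany these transporters were followed in the same fits at 1 week, in which 32.4% of all features were called. No list of regulators or targets reached that share. Of 16 regulators 3 were called, all lower after TAA: Nr0b2, the nuclear receptor SHP that represses bile acid synthesis (−2.13 ± 0.59, adjusted p = 0.0475), Nfe2l2, the antioxidant response factor Nrf2 (−0.83 ± 0.18, adjusted p = 0.0258), and Pdzk1, a scaffold that holds several of these carriers in the membrane (−0.89 ± 0.15, adjusted p = 0.0145). Their list median was −0.30, beside −0.14 over all features. Of 11 measured Nrf2 targets 1 was called, Gclm, a subunit of the glutathione synthesis enzyme, at −1.60 ± 0.14 (adjusted p = 0.00617), and the list median was −0.28. Of 10 PXR and CAR targets 2 were called, the cytochromes Cyp2c29 (−1.32 ± 0.23, adjusted p = 0.0154) and Cyp2c55 (−1.27 ± 0.28, adjusted p = 0.0279), with a list median of −0.52. PXR itself (Nr1i2) was at −0.32 ± 0.24 (adjusted p = 0.339) and CAR (Nr1i3) at 0.22 ± 0.34 (adjusted p = 0.633).

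Of 11 measured transporters of other families 1 was called higher and 1 lower after TAA at 1 week, again against 32.4% of all features. Slc10a1, the sodium-dependent bile acid carrier of the sinusoidal membrane, differed by 1.05 ± 0.16 (adjusted p = 0.0119), with 8.94 and 9.04 after CCl4 and 9.85 and 10.22 after TAA, and Abcg2, a canalicular drug and urate pump, was at −0.69 ± 0.19 (adjusted p = 0.0464). The bile salt export pump Abcb11 was at −0.44 ± 0.28 (adjusted p = 0.271). Of 11 measured genes that are more abundant in male liver, 10 were lower after TAA at 1 week and 3 of these were called, with a list median of −0.70. The median was −1.23 in the NC pair and −0.11 in the miR-29a pair. Of 7 more abundant in female liver 1 was called, higher (Cyp17a1). Of 14 acute phase genes 12 were higher, 1 was called higher (Hp) and 1 lower (Crp), with a list median of 0.78. That median was 2.1 in the NC pair, which holds the TAA array that stood apart, and −0.085 in the miR-29a pair. Each of these called shares also lay below that of all features. The part of these lists in the transporter differences was not tested.

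Likeness to Slco1a1 and Abcc4 was ranked by Pearson correlation over the 8 arrays. Only features whose name starts with a capital and then a small letter or digit were ranked. Among these the features most like Slco1a1 were Unc93a (0.991), Cnot1 (0.990) and Slc47a1 (0.990). Those most like Abcc4 were Plk1 (0.935), Skap1 (0.931) and Ms4a4b (0.922). The median size of the correlation over all features was 0.585 for Slco1a1 and 0.418 for Abcc4, and the 8 points share the agents, the weeks and the array scaling. Slc47a1 and Slco1a1 had their lowest levels on the TAA 1-week NC array, followed by the TAA 1-week miR-29a array.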

How the data were processed

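The data were 8 one-colour (Cy3) Agilent arrays of liver RNA, grouped by the sample labels. Per the file headers, spot intensity values were extracted with Agilent Feature Extraction 10.10.1.1, as background-subtracted processed signals, with no scaling between arrays. The deposited flags per spot (a score of 0 or 1 for well above background, outlier or saturated) came from the same program. The authors also deposited a log2 matrix; each column equalled the log2 processed signal minus 1 constant (within 0.05 for 100% of 55657 probes), its 75th percentile lay near 0, and its medians were −4.04, −4.07, −3.87, −3.81, −3.46, −3.47, −3.73 and −3.57 in the order CCl4 then TAA, each 1-week NC, 1-week miR-29a, 2-week NC, 2-week miR-29a. The authors' account of this scaling is not given in the sources used here.

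Control and outlier spots (126 to 196 per array) were left out, which removed 24 of 55681 probes. Spots of a probe were averaged, each array's 75th percentile was subtracted, and the brightest probe per gene was kept if well above background on at least 2 of 8 arrays. A RefSeq gene list (assembly GRCm38.p6, for symbols only) named 27560 probes through their accession and 3397 through their symbol; the file's own name stood for 24617. Coordinates of probes are on mm9 as deposited; their place in exons was not analysed here. The model, fitted in limma (version 3.58.1, R version 4.3.3, data.table at version 1.17.8), was additive in the 3 factors (4 residual degrees of freedom) or had 1 interaction as well (3), which also gave the agent within each week and the week within each agent. A bound ("at least") sets the brighter level against the higher of the dim level and the lowest level well above background on that array. Alternatives were other background corrections, scalings, filters and probe choices, the deposited matrix, an intensity trend and leaving out arrays. The script was tested on simulated data holding known changes. Array number limits precision. In the counts 2 members are included whose values are not reported here. The members and gene lists were chosen with earlier results of these data known. Genes named were those called, the 3 brightest of each role, the 3 with the largest constant-sign differences, and list genes that were called; other genes were named after their values were seen.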

Additional observations from a re-analysis of the deposited data

Results flagged for a closer look

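The agent difference of Abcb1a was 1.81 log2 units higher at 2 weeks than at 1 week, which drew attention because the test of the difference between the weeks passed the threshold (limma, adjusted p = 0.0322 over all features) and because both pairs of arrays were below 0 at 1 week (−0.77 and −0.78) and above 0 at 2 weeks (1.21 and 0.87). The adjusted p lay between 0.0156 and 0.167 over the 17 alternatives tried, and 7 of them put it above the threshold.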

How the results depend on the processing

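For agent, week, oligonucleotide and its 2 interactions the count of transporters called stayed at 0 under every alternative run. The count for the agent by week term, 1 in the main setting, was 7 under normexp background correction, 3 with scaling to the array median, 0 with no filter on dim probes, 3 with filters at 4 or 8 of 8 arrays, 3 with an intensity trend, and 0 to 4 when 1 array was left out. The count at 1 week, 11, was 24 with scaling to the array median, 6 with no filter, and 0 to 18 when 1 array was left out. Within CCl4 the count rose from 0 to 1 with filters at 4 or 8 arrays or the trend. Within TAA it rose from 0 to 6 under normexp, to 1 with the filter at 8 arrays or the trend, and lay between 0 and 3 when 1 array was left out. The uptake median for the agent, −0.23, became −0.62 with scaling to the array median and 0.25 with no filter. With no filter it was taken over 41 uptake genes in place of 23. The export median, 0.13, became −0.26 with scaling to the array median. The export median for the oligonucleotide lay between −0.08 and 0.14 when 1 array was left out. The oligonucleotide difference of Slco1a1 lay between −0.069 and 1.69 and changed sign without the TAA 1-week NC array. The cause of these changes was not tested. All arrays shared 1 slide and 1 scan, so the planned block by slide could not be run. The labels give no replicate number that could pair arrays. Over the 4 pairs matched by design, with the agent and week combinations as a block, the oligonucleotide count was 0 too.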
